A study of Mus musculus with 9 samples.

Results

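The 4 tropomyosin genes (Tpm1, Tpm2, Tpm3, Tpm4) and 3 tropomodulin genes (Tmod1, Tmod2, Tmod3) were followed in ribosome-associated RNA of parvalbumin interneurons (PV INs). They are 7 of the 37620 genes counted. The genes were listed by name, and the set was chosen by the Tpm2 difference, since Tpm2 is one of the 2 genes that were lower in the shRNA samples at the thresholds used. That difference is therefore given as a description with no test. The other 6 genes are the remaining listed members of both families, and their differences are given with the test across all genes.

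RNA was immunoprecipitated from the CA3/CA2 region of PV-Cre; Rpl22 HA/HA mice, in which the PV-Cre driver switches on an HA-tagged ribosomal protein (Rpl22) in cells that express parvalbumin. All 9 samples carried this allele and received a lentivirus in the dentate gyrus (DG). The virus held a non-target hairpin in the 5 shNT samples and a hairpin against Ablim3, an actin-binding protein of mossy fibre terminals, in the 4 shRNA samples. The study compared them to find the response of PV INs to a change in their mossy fibre inputs. Mice were 2 months old at injection, RNA was taken 2 weeks later, and each sample pooled 6 male and female mice. The hairpin was delivered to the DG and the RNA came from PV INs of CA3/CA2, so Ablim3 in these samples does not measure the knockdown. Ablim3 was at 12.1 to 22.6 CPM (reads of a gene scaled to the library total) in shNT and 13.7 to 21.7 in shRNA, with a log2 fold change of 0.13 (SE 0.23).

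Tropomyosins are coiled-coil dimers that lie end to end along the actin filament and set which myosins, severing proteins and nucleators can reach it. Each gene gives several isoforms through alternative promoters and exons, and different isoforms mark different actin filaments of a neuron. Tropomodulins cap the pointed end of the filament, where subunits leave, and bind the tropomyosins there, so both families stabilize filaments together. Tmod2 is the neuronal tropomodulin, Tmod1 is known from erythrocytes, muscle and neurons, and Tmod3 is widely expressed.

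Gene counts per sample ran from 18281719 to 34578837. Among the 9 samples, 2 stood apart: shRNA 4 had the highest level of astrocyte, pericyte and endothelial marker genes and the lowest of PV IN markers, and shNT 2 had the lowest PV IN marker level among shNT. The sample names form 2 sets, YTa31 (shNT 1 to 3, shRNA 1 to 3) and YTa32 (shNT 4 and 5, shRNA 4), and what the sets stand for is not given in the sources used here. The 14 PV IN markers were all present, and 14 of 14 had a negative log2 fold change (median -0.35, beside 0.11 over the 15069 genes tested). Pvalb was at 678 to 1380 CPM in shNT and 310 to 705 in shRNA. Of the markers of other cells, an unadjusted p under 0.05 with a higher level in shRNA was found for 9 of 10 astrocyte, 8 of 10 oligodendrocyte, 6 of 10 CA3 and CA2 pyramidal neuron, 6 of 10 DG granule cell, 4 of 10 microglial, 3 of 6 choroid plexus, 2 of 10 pericyte and 1 of 9 fibroblast genes, beside 20.7% of the genes tested. In bulk samples, less RNA from a cell type and less of a transcript per cell cannot be told apart.

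The members are close relatives, and the reads were 50 bases long, so their most alike stretches show how far counts can be told apart. Windows of 50 bases along the annotated coding transcripts (mm9 build) were compared between members, and the closest pair is shown for 3 pairs of genes, with the bases that differ in capitals. Tpm1 and Tpm2 came closest at their start codon, Tpm1 at chr9:66896890-66896939 and Tpm2 at chr4:43536177-43536226, both on the minus strand, with 3 differences.
Tpm1: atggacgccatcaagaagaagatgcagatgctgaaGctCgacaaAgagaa
Tpm2: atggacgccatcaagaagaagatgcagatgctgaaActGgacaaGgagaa
Tpm1 and Tpm3 also came within 3 differences, at chr9:66877486-66877535 (minus strand) and chr3:89894949-89894998 (plus strand).
Tpm1: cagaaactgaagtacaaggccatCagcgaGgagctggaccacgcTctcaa
Tpm3: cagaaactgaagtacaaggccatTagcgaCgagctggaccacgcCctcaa
The closest tropomodulin windows were those of Tmod1, at chr4:46106836-46106885 (plus strand), and Tmod2, at chr9:75429640-75429689 (minus strand), with 7 differences.
Tmod1: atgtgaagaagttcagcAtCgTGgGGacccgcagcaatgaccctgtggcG
Tmod2: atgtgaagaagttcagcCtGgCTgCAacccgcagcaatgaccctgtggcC
No window of 1 member was found unchanged in another (0 of the 2774 windows of Tpm2, for example). Outside the family, 1456 of 3640 windows of Tpm3 (40.0%) also occur in Tpm3-rs7, a near copy that itself had few reads. Reads that align at more than 1 place were counted for no gene, so the Tpm3 level may be too low. The share of alignments at more than 1 place was 12.5% ± 1.22 in shNT and 10.1% ± 1.22 in shRNA (exact permutation test, p 0.0159). What that difference does to the Tpm3 fold change was not tested. Tmod1 shares 1287 exon bases (32.6%) with Tstd2 on the opposite strand, and the authors counted without regard to strand. Reads there are ambiguous and counted for neither gene, so the Tmod1 level may be too low as well. Tstd2 was at 7.15 to 10.9 CPM in shNT and 9.16 to 11.7 in shRNA. Tpm4 shares 6.1% of its exon bases with the antisense gene Gm17371.

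All 7 genes were detected in all 9 samples and passed the filter on low counts, with 233 reads (Tmod1) to 14816 reads (Tmod2) per gene and sample. Per kilobase of exon (RPKM), the level in shNT was highest for Tmod2 (34.5 ± 2.46, SD, n = 5), followed by Tpm1 (30.6 ± 3.76), Tpm3 (24.8 ± 3.94) and Tpm2 (21.6 ± 6.10). Tpm4 (8.51 ± 3.21), Tmod3 (6.29 ± 0.752) and Tmod1 (3.77 ± 1.04) were lower. Among neighbours in this order, the ranges over shNT samples were separate only between Tpm2 and Tpm4, and the ranges of the other neighbours overlapped. In shRNA the order was Tmod2 (39.1), Tpm1 (23.9), Tpm3 (20.6), Tpm4 (11.5), Tpm2 (11.0), Tmod3 (9.56) and Tmod1 (7.18). The shRNA ranges were separate between Tmod2 and Tpm1 and between Tpm1 and Tpm3, and overlapped between the later neighbours. Tpm4 was above Tpm2 in 1 of 4 samples (27.7 RPKM in shRNA 4, 4.73 to 7.04 in the others), and Tmod3 was above Tmod1 in 1 of 4. RPKM uses the length of all annotated exons of a gene, so an order between genes whose isoforms differ in length is approximate, and gene counts do not separate the isoforms. That length includes the stretches Tpm3 and Tmod1 share with other genes, where reads can be lost, so their places in the order may be too low. The annotated coding transcripts begin at 16 different positions for Tpm1, 9 for Tpm3 and 4 for Tpm2. These positions need not be separate promoters or start codons.

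**Figure D1:**
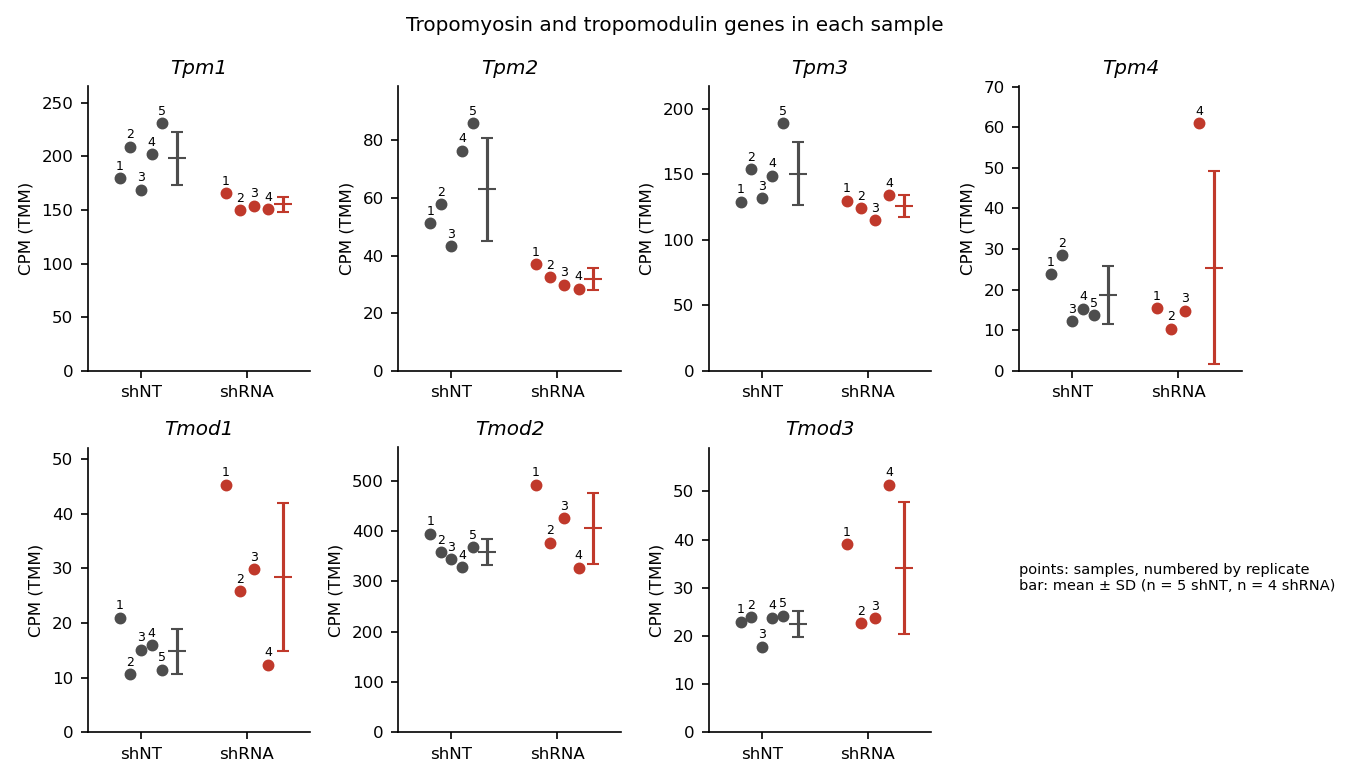
Level of each gene in CPM (TMM-normalized, linear axis from 0) in the 5 shNT samples (grey) and 4 shRNA samples (red), numbered by replicate, with the mean ± SD beside them. Every shRNA sample lies under every shNT sample for Tpm1 (at most 166 against at least 169) and Tpm2 (at most 37.0 against at least 43.2), and shRNA 4 is the highest sample for Tpm4 and Tmod3.

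Tpm2, which encodes beta-tropomyosin of muscle as well as non-muscle isoforms, spans chr4:43527583-43536637 on the minus strand. It was at 51.3, 57.9, 43.2, 76.4 and 85.9 CPM in shNT 1 to 5 and at 37.0, 32.4, 29.9 and 28.5 in shRNA 1 to 4. All 4 shRNA samples were below the lowest shNT sample, and the shNT samples of the YTa32 set were the highest. The means were 62.9 ± 17.7 CPM (SD, n = 5) and 31.9 ± 3.74 (n = 4), a log2 fold change of -0.98 (SE 0.20). Passing the thresholds in this direction, as 0.0133% of the genes tested did, is what chose Tpm2, and nothing is read from it (a call needs at least 1.5-fold and, in edgeR's quasi-likelihood test, an FDR below 0.05). Within YTa31 (3 and 3 samples) the mean was 50.8 CPM in shNT and 33.1 in shRNA (log2 difference -0.61), and within YTa32 (2 and 1) it was 81.1 and 28.5 (-1.51). The 2 values differed in size, and with 1 shRNA sample in YTa32 that gap was not tested. The same samples chose Tpm2, so its sign in a name set or with a sample left out is no check of the difference. Leaving out any single sample kept the value between -1.15 and -0.92. Tpm2 was not past the thresholds without shNT 3, 4 or 5 or without any 1 of the shRNA samples, where edgeR called 0 genes lower. The same held with YTa31 alone, reads outside exons as a term, the replicate block, filterByExpr, upper quartile scaling or library size only. Of the summed RPKM of the 4 tropomyosins, Tpm2 made up 25.0% ± 3.87 in shNT and 16.7% ± 3.38 in shRNA.

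Among the 6 other genes, none was called higher or lower by edgeR's quasi-likelihood test (0 of 6, beside 1.75% of the genes tested in either direction and 1.74% higher). An unadjusted p under 0.05 was found for 3 of the 6 (Tpm1, Tmod1 and Tmod3), beside 34.1% of the genes tested. It was lower in shRNA for Tpm1, as for 13.4% of the genes tested. edgeR's likelihood ratio and exact tests, DESeq2 and limma voom each called 1 of the 6, Tmod1, beside 14.8%, 14.6%, 15.7% and 19.4% of the genes tested. The 3 tropomodulins had positive log2 fold changes, and 3 of the 4 tropomyosins had negative ones, against a median of 0.11 over all genes.

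Tpm1, the source of alpha-tropomyosin and of many non-muscle isoforms, lies on the minus strand at chr9:66870397-66897213. Its level was 180, 209, 169, 202 and 231 CPM in shNT and 166, 150, 154 and 151 CPM in shRNA. The groups did not overlap, and 6.68% of the genes tested were lower in shRNA without overlap (8.97% were higher, 15.6% either), but the lowest shNT sample exceeded the highest shRNA sample by little. The means were 198 ± 24.4 and 155 ± 7.18 CPM, with a log2 fold change of -0.35 (SE 0.14, FDR 0.101 by edgeR's quasi-likelihood test). DESeq2 gave an FDR of 0.0352 and limma voom 0.0108, both at a change under 1.5-fold. Tpm3, whose isoforms are abundant in non-muscle cells (chr3:89876571-89904824, plus strand), was at 129, 154, 132, 149 and 189 CPM in shNT and 130, 124, 115 and 134 in shRNA. The groups overlapped, with shNT 5 above the rest. The log2 fold change of Tpm3 was -0.26 (SE 0.15, edgeR FDR 0.212). By limma voom it was -0.33 with an FDR of 0.0231, also under 1.5-fold.

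Tpm4, a gene of short non-muscle isoforms (chr8:74658874-74677041, plus strand), differed most between samples of 1 group. Its level was 23.9, 28.5, 12.3, 15.3 and 13.7 CPM in shNT and 15.5, 10.4, 14.8 and 61.0 in shRNA. Only shRNA 4 was above the shNT range. With all samples the log2 fold change was 0.44 (SE 0.48, edgeR FDR 0.525), and without shRNA 4 it was -0.50 (SE 0.30, FDR 0.305), so 1 sample set its direction. The endothelial marker level (mean log2 CPM of 10 genes relative to the shNT mean) was 2.31 in shRNA 4, 0.72 in shNT 1, 0.66 in shNT 2 and at most 0.08 in the other samples, and these 3 samples also had the highest Tpm4. None of these markers was at 0 in any sample. The summed level of the list was 102 to 304 CPM in shNT and 65.7 to 843 in shRNA. A positive log2 fold change was found for 9 of 10 genes, and an unadjusted p under 0.05 by edgeR's quasi-likelihood test for 0. In shRNA 1 to 3 the endothelial level was -0.44, -1.35 and -0.48. The pericyte and vascular smooth muscle marker levels were also highest in shRNA 4, shNT 1 and shNT 2. The astrocyte level was highest in shRNA 4 too, but was higher in shRNA 3 than in shNT 1 or shNT 2. The samples with high Tpm4 thus do not single out endothelial cells. The part of RNA from any of these cell types in the Tpm4 values was not tested.

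**Figure D2:**
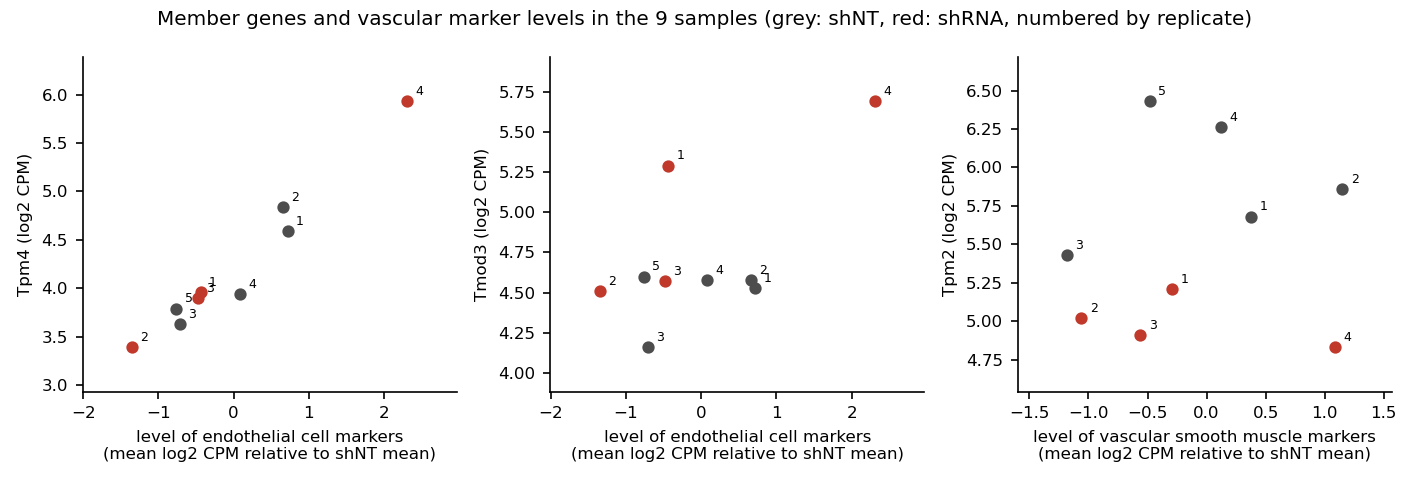
Log2 CPM of Tpm4, Tmod3 and Tpm2 (vertical axes) against the level of endothelial or vascular smooth muscle markers (horizontal axes, mean log2 CPM relative to the shNT mean) in the 9 samples. Tpm4 and the endothelial level are both highest in shRNA 4 (2.31). Tpm2 is lowest in shRNA 4, where the smooth muscle level is 1.09, and the other shRNA samples have levels of -1.06 to -0.29.

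Beta-tropomyosin is abundant in smooth muscle, so that list is given beside Tpm2. Of 10 vascular smooth muscle markers, 9 passed the filter, and these summed to 40.5 to 110 CPM in shNT and 46.1 to 115 in shRNA. Of the 9, 0 had an unadjusted p under 0.05 and 0 were called by the quasi-likelihood test. The marker that did not pass, Actg2, was at 0 in some samples. Acta2, smooth muscle actin, was at 2.23 to 23.2 CPM in shNT and 2.70 to 21.9 in shRNA, with no separation. Myh11 and Tagln, a myosin heavy chain and transgelin of smooth muscle, had means of 5.04 and 3.84 CPM in shNT and 6.44 and 1.90 in shRNA. Among pericyte markers the level was 2.16 in shRNA 4 and -0.47 to -0.12 in the other shRNA samples, with Rgs5 at means of 41.0 and 46.3 CPM, Pdgfrb at 6.37 and 14.2 and Kcnj8 at 1.89 and 3.24. The smooth muscle level was -0.29, -1.06, -0.56 and 1.09 in shRNA 1 to 4. Among shNT samples it was -1.18 in shNT 3, which had the lowest Tpm2, but -0.48 in shNT 5, which had the highest. The shNT sample with the highest smooth muscle level was shNT 2, where Tpm2 was lower than in shNT 4 and 5. Pvalb, the marker of the tagged cells, was at 678, 1110, 743, 1090 and 1380 CPM in shNT 1 to 5. In shRNA 1 to 4 it was at 705, 552, 539 and 310 CPM. Pvalb and Tpm2 were both highest in shNT 5 and both decreased in order over shRNA 1 to 4. Among shNT samples, Pvalb was lowest in shNT 1 and Tpm2 in shNT 3. The log2 fold change of Pvalb was -0.92 (SE 0.28). The part of any of these cell types in the Tpm2 values was not tested.

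The tropomodulins had higher means in shRNA than in shNT, and none passed the quasi-likelihood test. Tmod1, on the plus strand at chr4:46051807-46128904, was at 21.0, 10.7, 15.1, 16.0 and 11.5 CPM in shNT and 45.3, 25.8, 29.9 and 12.4 in shRNA. shRNA 1 to 3 were above all shNT samples, and shRNA 4 was within the shNT range. The means were 14.9 ± 4.12 and 28.4 ± 13.5 CPM, with a log2 fold change of 0.93 (SE 0.32, FDR 0.0813 by edgeR's quasi-likelihood test). The call depended on the test and on shRNA 4. The FDR was 0.0371 by edgeR's likelihood ratio test, 0.0378 by its exact test, 0.0375 by DESeq2 and 0.00315 by limma voom, and without shRNA 4 the quasi-likelihood FDR was 0.0466 at a log2 fold change of 1.17. Without shRNA 1 the log2 fold change was 0.56. Within YTa31 the log2 difference was 1.12, and within YTa32 it was -0.13 with 1 shRNA sample.

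Tmod2, the member with the most reads, lies on the minus strand at chr9:75413428-75459132. It was at 395, 358, 344, 328 and 368 CPM in shNT and 492, 377, 426 and 327 in shRNA. The groups overlapped, shRNA 1 was the highest sample and shRNA 4 the lowest. The log2 fold change was 0.18 (SE 0.16, edgeR FDR 0.427). Tmod2 made up 77.4% ± 1.86 of the summed tropomodulin RPKM in shNT and 70.1% ± 4.83 in shRNA. Tmod3, directly beside Tmod2 on chromosome 9 (chr9:75345603-75407464, minus strand), was at 23.0, 23.9, 17.8, 23.8 and 24.2 CPM in shNT and 39.0, 22.6, 23.7 and 51.4 in shRNA. shRNA 1 and 4 were above the shNT range, and shRNA 2 and 3 within it. The log2 fold change of Tmod3 was 0.60 (SE 0.24, edgeR FDR 0.104), and without shRNA 4 it was 0.32. With reads outside exons as a term it was 0.14, and by limma voom 0.16.

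**Figure D3:**
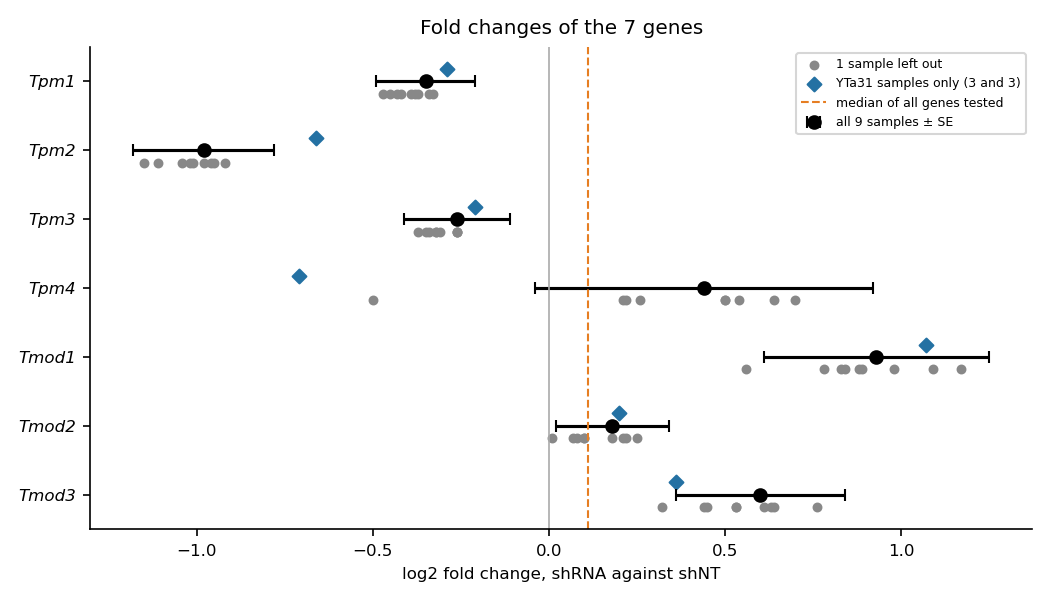
Log2 fold change, shRNA against shNT, of the 7 genes (black, ± SE from edgeR), with each sample left out in turn (grey), with the YTa31 samples alone (blue) and the median of all genes tested (dashed line, 0.11). Tpm2 is between -1.15 and -0.92 with 1 sample left out, a description only, since these same samples chose it. Tpm4 moves from 0.44 to -0.50 without shRNA 4.

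Across the 9 samples, Tpm1, Tpm2 and Tpm3 were high and low in much the same samples and Tpm4 was not. Pearson's r of log2 CPM was 0.96 between Tpm1 and Tpm2 and 0.89 after the group means were removed. It was 0.90 between Tpm1 and Tpm3 and 0.84 between Tpm2 and Tpm3. Tmod1 and Tmod2 had an r of 0.85 (0.81 within groups), and Tpm4 and Tmod3 had 0.69 (0.79 within groups). All points come from the same 9 libraries and share their depth and cell makeup, so these values describe the samples only. The 5 genes outside the families most like Tpm2 in these samples (mean of at least 10 CPM) were Scn2b, a sodium channel subunit (r 0.998), Aktip (0.992), Ppp2cb (0.985), Ppm1h (0.983) and Tprgl (0.982). For Tmod2 they were Srcin1 (0.972), Golga4 (0.935), Ddx10 (0.931), Rpgrip1l (0.927) and BC007180 (0.926).

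Fold changes in these data increased with the length of the gene, and the members differ in length. The median log2 fold change was -0.19 for genes of up to 5 kb, -0.07 for 5 to 10 kb, 0.01 for 10 to 20 kb, 0.15 for 20 to 50 kb, 0.32 for 50 to 100 kb and 0.43 above 200 kb. Tpm2 spans 9.1 kb, Tpm4 18.2, Tpm1 26.8, Tpm3 28.3, Tmod2 45.7, Tmod3 61.9 and Tmod1 77.1 kb. The 3 tropomodulins are thus longer than the 4 tropomyosins. Subtracting the trend on gene length moved the median of all genes from 0.11 to -0.11, and the log2 fold change was then -1.06 for Tpm2, 0.53 for Tmod1 and -0.14 for Tmod2. With the residuals moved back to the median of 0.11, the values were -0.83, 0.76 and 0.09, so the sign of Tmod2 depended on the centring. The part of gene length in these differences was not tested further. Reads outside exons were 9.76 to 18.6% of unique reads in shNT and 12.4 to 27.2% in shRNA.

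**Figure D4:**
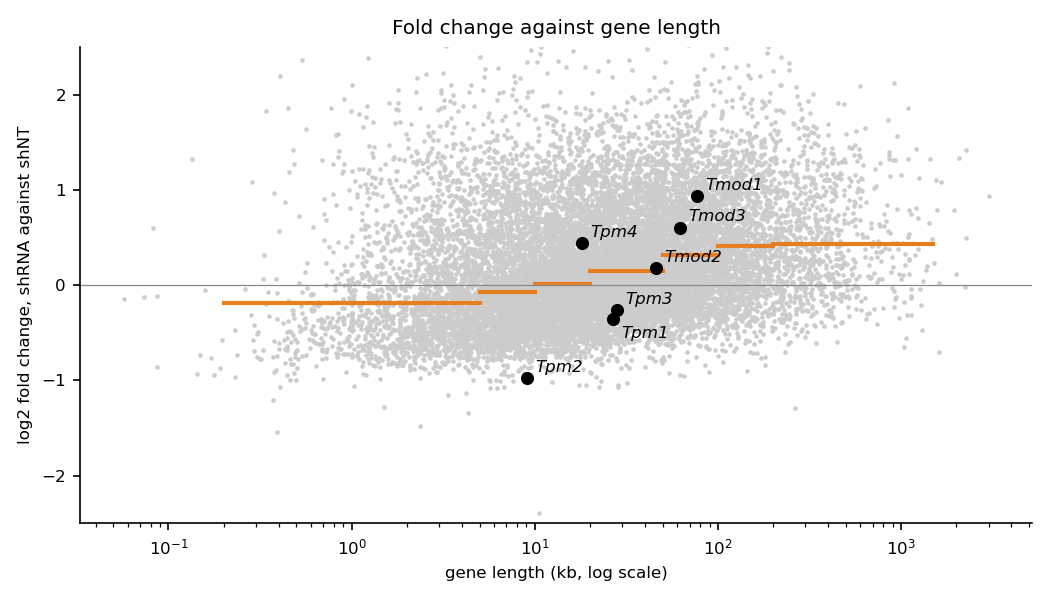
Log2 fold change, shRNA against shNT, against gene length in kb (log scale) for the genes tested (grey points), with the median in each length bin (orange) and the 7 genes in black. Tpm2 (9.1 kb) lies far under its bin's median of -0.07, and Tmod1 (77.1 kb) lies above its bin's median of 0.32. The plot leaves out 55 genes beyond its vertical range.

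The other genes of the actin filament gave no common direction. Of 97 genes in 11 lists beside the members, 87 were tested, 3 were called higher and 0 were called lower by edgeR's quasi-likelihood test, beside 1.74% and 0.0133% of all genes tested, and the median log2 fold change was 0.01. An unadjusted p under 0.05 was found for 17 higher (19.5%) and 14 lower (16.1%), near the 20.7% and 13.4% of all genes tested. The 3 genes called higher were Gsn and Scin, which sever filaments and cap their barbed ends, and Myh14, a non-muscle myosin II heavy chain. Gsn had means of 61.6 ± 47.2 and 605 ± 375 CPM (log2 fold change 3.30, SE 0.63, edgeR FDR 0.0403). Scin had means of 0.869 and 7.40 CPM (3.07, FDR 0.0403) and Myh14 of 43.4 and 162 CPM (1.90, FDR 0.0467). The groups overlapped for Gsn, at 136 CPM in shRNA 4 and 138 in shNT 1, and for Myh14, at 57.4 and 82.0.

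None of the 4 actins tested was called. Actb, beta-actin, was at 643 ± 121 CPM in shNT and 646 ± 55.7 in shRNA, and Actg1, gamma-actin, at 435 ± 83.6 and 336 ± 129 CPM. The monomer-binding proteins all had negative log2 fold changes (4 of 4), with Tmsb4x, thymosin beta 4, at -0.75 (edgeR FDR 0.0698) and Pfn2, the neuronal profilin, at -0.58 (FDR 0.094). Of the barbed-end cappers, Capzb was at -0.47 and Eps8 at 0.76. Of 10 genes of the Arp2/3 complex, which starts branches, 7 had negative log2 fold changes (median -0.07), and none was called. Arpc5l was at -0.55 (edgeR FDR 0.0698) and Arpc4 at -0.52 (FDR 0.103), while Arpc1b was at 0.61 (FDR 0.311). Of 14 formins, which elongate filaments, 11 had positive log2 fold changes, with Diaph2 at 1.22 and Daam1 at 0.63, and none was called. Of the 7 caldesmon, calponin and transgelin genes, 4 had negative log2 fold changes (median -0.03) and none was called. Tagln3 was at -0.51 (SE 0.20, edgeR FDR 0.101) and Tagln at -1.01 (SE 0.64, FDR 0.271). Of the 3 troponins tested none was called, with Tnnt1 at -0.69 (FDR 0.0716) and Tnni1 at 0.57 (FDR 0.338). Tnni1 was low, with means of 0.731 CPM in shNT and 1.08 in shRNA. Lmod1, a tropomodulin relative of smooth muscle, was near the filter at 0.592 and 0.436 CPM.

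Spectrins and adducins form the membrane skeleton whose short actin filaments tropomodulin caps. None of the 11 genes was called, and 5 had an unadjusted p under 0.05, all higher in shRNA (45.5%, beside 20.7% of all genes tested, of which 1.74% were called higher). Sptan1, alpha-II spectrin, was at 763 ± 746 and 5910 ± 3360 CPM (log2 fold change 2.95, SE 0.70, edgeR FDR 0.0517). Its values were 2010, 877, 453, 180 and 295 CPM in shNT and 8630, 4900, 8510 and 1590 in shRNA, so shRNA 4 was below shNT 1. Add3, gamma-adducin, was at 47.9 ± 9.86 and 94.8 ± 43.0 CPM (0.98, FDR 0.0621). In shRNA 1 to 3, the samples with the highest Sptan1, Tmod1 was also above all shNT samples. Gsn, Scin and Myh14 were highest in shRNA 1 to 3 too. Add3 instead was highest in shRNA 4 (157 CPM), where Tmod1 was lowest among shRNA samples (12.4), and was 63.9 in shRNA 1, where Tmod1 was highest. A link between these genes was not tested.

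**Figure D5:**
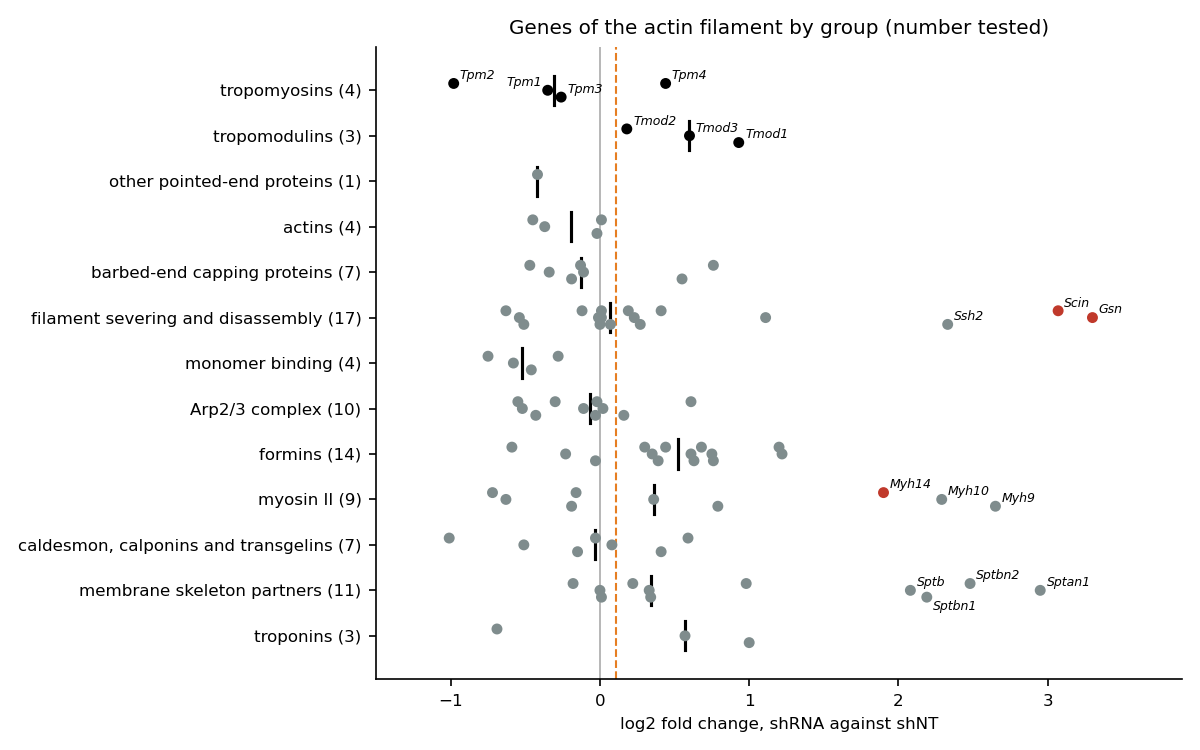
Log2 fold change, shRNA against shNT, of each tested gene in 13 lists of actin filament genes (points), with the list median (black bar) and the median of all genes tested (dashed line, 0.11). The members are black, the 3 genes called higher (Gsn, Scin, Myh14) are red, and genes beyond 1.5 are labelled with the members.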

How the data were processed

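Ribosome-associated RNA of PV INs was sequenced in 5 shNT and 4 shRNA samples. The authors aligned reads to mm9 with STAR, used HTSeq 0.6.0 to count unique alignments to each gene on either strand, and deposited the raw counts per sample. The annotation they used is not given in the sources used here. Positions, lengths and names came from the GENCODE annotation of mm9, which named 37205 of 37620 identifiers. Listed genes missing under their current symbol were looked up through RefSeq synonyms, a step added after most membrane skeleton genes were found unmatched.

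Rows that count reads outside genes were left out of library sizes. A gene was kept if any 1 sample reached 1 CPM (15069 genes, with 22551 removed). Counts were TMM-normalized and fitted with edgeR's quasi-likelihood test (edgeR 4.0.16, R 4.3.3, limma 3.58.1, DESeq2 1.42.0) on condition alone, with Benjamini-Hochberg adjustment over all genes tested. Called genes had at least 1.5-fold and an FDR below 0.05. Levels are TMM-normalized CPM, log2 CPM used a prior count of 2, and RPKM divides by exon length. The fit was tested on simulated counts. The labels do not say whether the pools come from separate cohorts, so p-values measure the spread between these pools.

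Gene counts of 18281719 to 34578837 per sample make counting error small beside the spread between samples for the members. Genes named were the members, the 5 genes most like Tpm2 and Tmod2, the called genes of each actin list or otherwise the 2 with the lowest p, first markers of vascular cells, Pvalb and Ablim3. Actb and Tstd2 were added after their values were seen. Members and lists were chosen with earlier results of these data known. Same-numbered samples did not deviate together, with correlations of -0.27, -0.64, 0.49 and -0.18, so numbers were not used to pair them. Alternatives were other tests, normalizations and filters, the name set, reads outside exons, length trends and samples left out.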

Additional observations from a re-analysis of the deposited data

Results flagged for a closer look

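Of 40 sets of values checked for a sample far from the rest of its group, 7 had one, where about 2.0 would be found by chance at 1 in 20. Tpm4 was at 61.0 CPM in shRNA 4, and the other shRNA samples were at 10.4 to 15.5. Tmod3 was at 17.8 CPM in shNT 3, and the other shNT samples were at 23.0 to 24.2. The pericyte marker level was 2.16 in shRNA 4, and the astrocyte marker level there was 2.57, against 0.33 to 0.64 in the other shRNA samples. The PV IN marker level was -0.42 in shNT 2, against 0.04 to 0.16 in the other shNT samples. The share of unique reads outside exons was 18.6% in shNT 2, and the other shNT samples had at most 11.3%. The share of alignments at more than 1 place was 8.24% in shRNA 4, against 10.6 to 10.8% in the other shRNA samples.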

How the results depend on the processing

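Tpm1, Tpm2, Tpm3, Tmod1 and Tmod3 kept their direction under all 27 alternatives. Their log2 fold changes were -0.77 to -0.29, -1.15 to -0.66, -0.66 to -0.20, 0.53 to 1.26 and 0.14 to 0.76 in that order. For Tpm2, which was chosen by its fall in these samples, this is a description only. Tmod1 was past the thresholds under edgeR's likelihood ratio test (0.93), its exact test (0.93), DESeq2 (0.90), limma voom (0.97), and with shNT 2 and shRNA 4 both left out (1.10), each of which called 1 member other than Tpm2. With 1 sample left out the number of such members was 0 to 1, and Tmod1 was at 0.56 to 1.17. Tpm4 turned to -0.20 under limma voom, -0.07 under the replicate block, -0.71 with YTa31 alone, -0.65 with reads outside exons as a term and -0.25 with shNT 2 and shRNA 4 both left out. With 1 sample left out it was -0.50 to 0.70.

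The loess trend on gene length, as planned, is a plain residual: Tpm1 was then -0.56, Tpm3 -0.48 and Tmod2 -0.14. Moving residuals back to the median of all genes, a centring chosen after seeing the data, gave Tmod2 0.09. The trend on exon length, also added after seeing the data, gave Tpm1 -0.77, Tpm3 -0.66 and Tmod2 -0.40 as residuals, and Tpm1 -0.52 and Tmod2 -0.15 after the same centring.

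The number of genes called higher and lower was 1688 and 542 by the likelihood ratio test, 1659 and 534 by the exact test, 1519 and 844 by DESeq2, and 2301 and 618 by limma voom. It was 0 and 0 with library size only, upper quartile scaling, filterByExpr, YTa31 alone or reads outside exons as a term, where unadjusted p-values under 0.05 numbered 5258, 5360, 5139, 1493 and 4491. It was 501 and 14 with no filter, and 34 and 0 with the replicate block, whose numbers do not pair the samples. With DESeq2 size factors in edgeR, and with the name set as a term, 1 gene was called lower. With shNT 2 and shRNA 4 both left out, chosen after seeing the data, 678 were higher. With 1 sample left out the numbers were 0 to 1007 higher and 0 to 410 lower, both highest without shNT 1 and 0 without shNT 3, 4 or 5 or shRNA 1 or 3 (3473 to 4625 at an unadjusted p under 0.05). The cause of these changes was not tested.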
